A study of Danio rerio with 8 samples.

Results

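Myelin is the layered membrane sheath that glial cells wrap around axons. In the central nervous system it is made by oligodendrocytes, which arise in the ventral spinal cord and hindbrain from progenitors that also give rise to motor neurons. In zebrafish, the first oligodendrocyte precursor cells leave these progenitor domains at about the age examined here, and the genes of the myelin sheath come on as the cells stop migrating and mature. The basic helix-loop-helix factors Olig2 and Olig1 and the homeodomain factor Nkx2.2 act in specification, Myrf is the transcription factor that starts the myelin programme in differentiating cells, and proteolipid protein, myelin basic protein and claudin k belong to the sheath itself.

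The transcripts of 9 genes of this lineage (*olig1*, *olig2*, *nkx2.2a*, *myrf*, *plp1a*, *plp1b*, *mbpa*, *cldnk* and *mpz*) were examined in whole zebrafish embryos with and without a functional *fmr1* gene. The genes were selected by symbol out of 32057 genes in the count table, with earlier results of these data known. All 9 passed the filter on low counts, which retained 23567 genes. *fmr1* encodes an RNA-binding protein that regulates translation, and loss of the human gene causes fragile X syndrome.

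RNA-seq libraries (polyA+, strand-specific) were made from 8 clutches of embryos at 2 days post-fertilisation (dpf), with the embryos of each clutch pooled and no parents shared between clutches. The mutant clutches, named S2, S4, S5 and S8, came from matings of fish homozygous for the hu2787 allele of *fmr1* (spelled h2787 in the genotype field of the sample labels), a non-sense mutation. The wild type clutches, named A, D, G and L, came from non-mutant fish. All parents descended from 1 imported population that carried the allele, and some clutches also carried the recessive w2 allele of *mitfa*, for which no parent was homozygous. The embryos were entire, so a lower transcript level in a clutch can mean fewer cells of the lineage or less RNA per cell. It can also come from other cells that express the gene, and these cannot be told apart here. Age is recorded as 2 dpf for every clutch, and a difference in stage between clutches was not tested.

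Between 29296538 and 33205738 reads were assigned to genes per library. Levels are given as CPM (read counts relative to the total of the library, scaled by the TMM method of edgeR), and mean values with the SD over 4 clutches. Transcripts of *fmr1* itself were at 21.4 ± 2.02 CPM in the mutant clutches and 49.9 ± 3.13 CPM in the wild type clutches (SD, n = 4). The FDR was 0.00551 (quasi-likelihood test of edgeR, *p*-values adjusted by Benjamini-Hochberg). No mutant clutch was above 23.4 CPM and no wild type clutch was below 47.1 CPM, so *fmr1* separated the genotypes as labelled. In a principal component analysis, wild type clutches A and D stood apart from the other 6 clutches, with PC1 scores of 57.4 and 62.3 against −42.5 to 4.23, on a component that held 29.6% of the variance. On PC2, which held 23.7%, mutant clutches S2 and S4 stood apart, at 49.1 and 46.5 against −43.8 to 9.39. In the sample labels, S2 and S4 are numbers 1 and 2 of the mutant, and A and D are numbers 1 and 2 of the wild type. Main results are given also without A and D. That fit keeps S2 and S4, so it drops numbers 1 and 2 from the wild type only.

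None of the 9 genes differed between genotypes at an FDR of 0.05 by edgeR's quasi-likelihood test, and their FDR lay between 0.528 and 0.864. The count was also 0 by the likelihood-ratio test of edgeR, by limma-voom and by DESeq2, although DESeq2 gave no *p*-value for *mbpa*. Over all genes tested, 3 genes (0.0127%) passed this threshold, 0.00849% higher and 0.00424% lower in the mutant. Before adjustment, 2 of the 9 genes, *olig2* and *plp1a*, had a *p*-value under 0.05, both lower in the mutant clutches. Of all genes tested 9.41% had such a *p*-value, made up of 5.19% lower and 4.22% higher in the mutant. Fitted levels were higher in the mutant for 6 of the 9 genes and lower for 3, where 46.9% of all genes were lower. The median log2 fold change of the 9 genes was 0.32, beside 0.02 over all genes. Without A and D, 4 genes were higher and 5 lower, and the median turned to −0.07 (0.02 over all genes). The genotypes overlapped for all 9 genes, whereas 4.28% of all genes had genotypes that did not overlap (1.78% higher and 2.5% lower in the mutant). For *plp1b*, *mbpa* and *mpz* the wild type clutches differed widely among themselves, by 139-fold for *mbpa*.

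**Figure D1:**
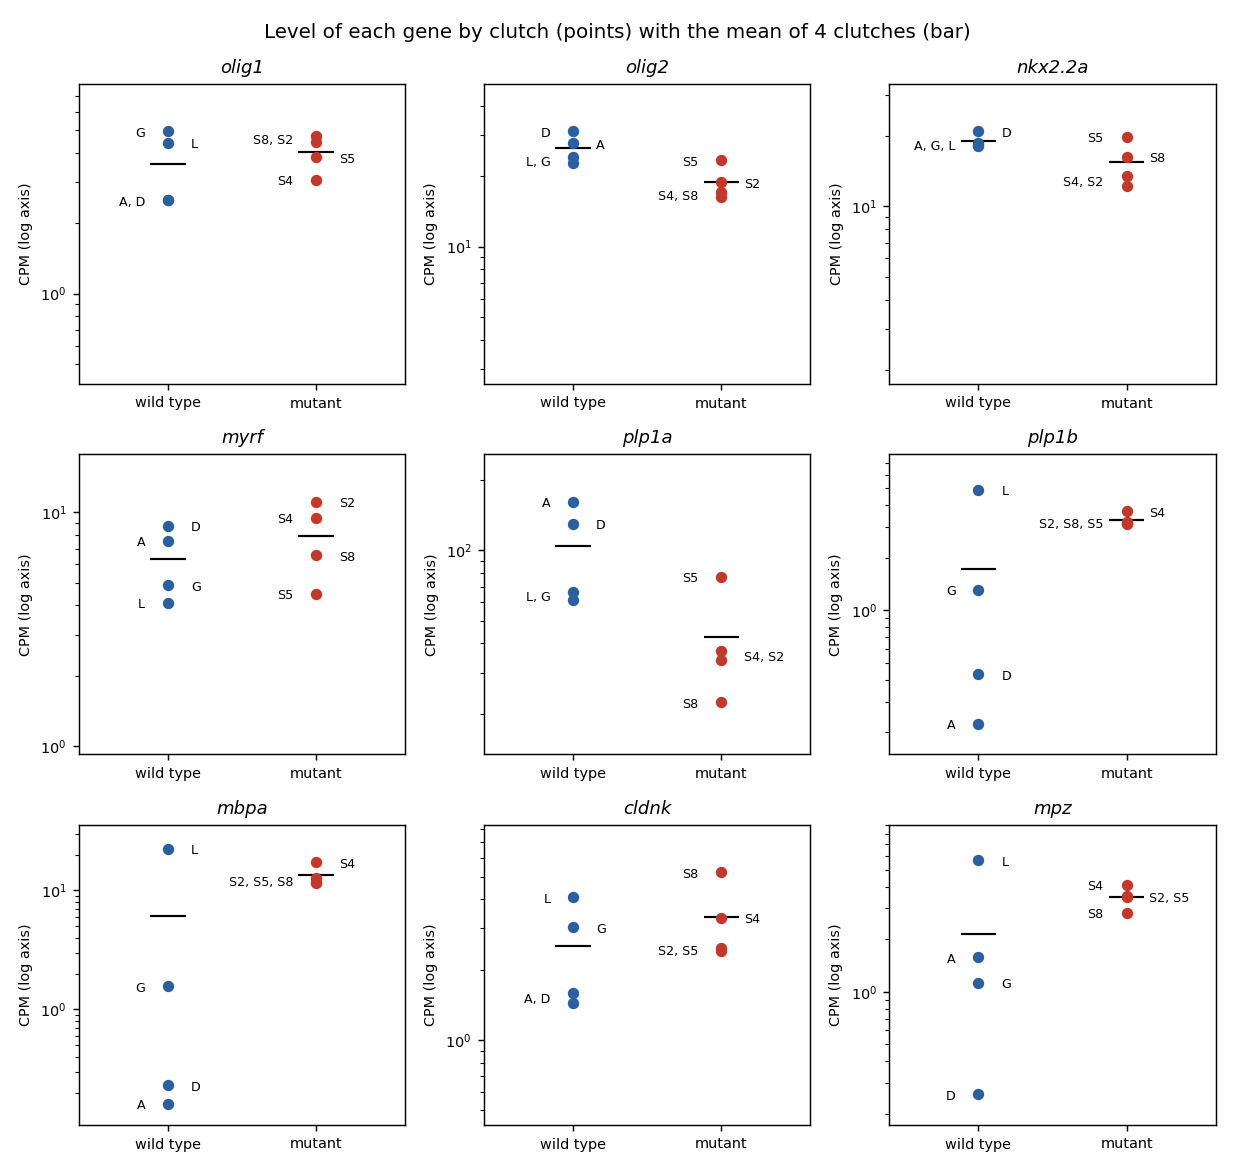
Level of each of the 9 genes in CPM (log axis) for the 4 wild type clutches (blue) and the 4 mutant clutches (red), with clutch names beside the points and a bar at the mean of 4 clutches. For *plp1b*, *mbpa* and *mpz* the 4 mutant clutches sit close together while the wild type clutches spread 21.8-fold, 139-fold and 21.9-fold.

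Among the specification factors, *olig2* was the gene with the smallest *p*-value. It lies on Chromosome 9 of GRCz11 at 32751428 to 32753535 (reverse strand, ENSDARG00000040946) and is required for both motor neurons and oligodendrocytes. Its level was 18.9, 16.3, 23.4 and 17.1 CPM in S2, S4, S5 and S8. In the wild type it was 27.6, 31.1, 24.1 and 22.7 CPM in A, D, G and L. Mutant clutches S2, S4 and S8 were below every wild type clutch, and S5 lay between L and G. The means were 18.9 ± 3.18 and 26.4 ± 3.75 CPM (SD, n = 4), so that the fitted level in the mutant was 71.7% of wild type (log2 fold change −0.48, SE 0.15, 95% interval −0.81 to −0.15). With edgeR's unadjusted *p* = 0.00818 the FDR was 0.528, and the exact permutation test over 70 arrangements of the clutches (two-sided) gave *p* = 0.0571, where the smallest possible value is 0.0286. Without A and D the log2 fold change was −0.30 (edgeR FDR 0.773).

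The neighbouring gene *olig1* (ENSDARG00000040948, Chromosome 9, 32728653 to 32730487, reverse strand), which acts mainly in maturing oligodendrocytes in mice, lies 20.9 kb from *olig2* and showed another order of clutches. It was at 4.74, 3.06, 3.83 and 4.44 CPM in S2, S4, S5 and S8, and at 2.51, 2.51, 4.94 and 4.42 CPM in A, D, G and L. Clutches A and D had the lowest *olig1* of all 8 clutches and the highest *olig2*. The genotype means of *olig1* were 4.02 ± 0.74 and 3.59 ± 1.27 CPM (SD, n = 4), with a log2 fold change of 0.16 (SE 0.27, edgeR FDR 0.864) that turned to −0.21 without A and D.

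Transcripts of *nkx2.2a* (ENSDARG00000053298, Chromosome 17, 42208623 to 42218652, reverse strand) mark the ventral-most progenitors of the neural tube and, later, differentiating oligodendrocyte precursors. They were at 13.5, 12.3, 19.8 and 16.3 CPM in S2, S4, S5 and S8 and at 18.1, 20.9, 18.3 and 18.7 CPM in A, D, G and L. As with *olig2*, clutches S2, S4 and S8 were below every wild type clutch and S5 was within the wild type range. The means were 15.5 ± 3.35 and 19.0 ± 1.32 CPM (SD, n = 4), and the log2 fold change of −0.30 (SE 0.16) had an edgeR FDR of 0.559. This value was −0.25 without A and D.

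For *myrf* (ENSDARG00000078676, Chromosome 25, 3897907 to 3979583, reverse strand), levels were 11.1, 9.46, 4.49 and 6.56 CPM in S2, S4, S5 and S8. They were 7.55, 8.78, 4.87 and 4.11 CPM in A, D, G and L. High and low clutches occurred in both genotypes, and the lowest mutant clutch (S5) was close to the lowest wild type clutch (L). The means were 7.90 ± 2.94 and 6.33 ± 2.2 CPM (SD, n = 4), with a log2 fold change of 0.32 (SE 0.31, edgeR FDR 0.753). Leaving out A and D moved this value further from 0, to 0.83 (edgeR FDR 0.773). However, the 4 clutches with label numbers 1 and 2 (S2, S4, A and D) had the highest *myrf*. This fit kept S2 and S4 and dropped A and D. Mutant minus wild type, the difference in mean log2 CPM was 0.33 within numbers 1 and 2 and 0.27 within 3 and 4. Without A and D, *myrf* was the only one of the 9 genes with an unadjusted *p*-value under 0.05. Of the 23139 genes tested in that fit, 5.34% had such a value (3.78% higher and 1.56% lower).

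Of the 9 genes, *plp1a* had the largest fitted difference in the lower direction. It encodes a proteolipid protein of glial membranes and lies on Chromosome 14 at 14577246 to 14596699 (forward strand, ENSDARG00000103732). It was at 37.2, 34.1, 77.0 and 22.4 CPM in S2, S4, S5 and S8, from 696 to 2093 reads, and at 161, 130, 66.6 and 61.1 CPM in A, D, G and L, from 1619 to 5015 reads. Clutches A and D were the highest, S2, S4 and S8 were the lowest, and mutant clutch S5 was above wild type clutches G and L. The means were 42.7 ± 23.8 and 105 ± 48.9 CPM (SD, n = 4), and the fitted level was 2.46-fold lower in the mutant (log2 fold change −1.30, SE 0.40, 95% interval −2.18 to −0.41). The unadjusted *p* was 0.00831 by edgeR with an FDR of 0.528, and the exact permutation test gave *p* = 0.0857 (two-sided). Without A and D the log2 fold change was −0.58 (SE 0.39, edgeR FDR 0.774), and without S5 it was −1.75 with an FDR of 0.0785, the smallest FDR of *plp1a* when 1 clutch was left out.

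Since *plp1a* is on the chromosome of *fmr1*, 5.58 Mb from it, the genes around it were also examined. Within 1 Mb of *plp1a* 20 other genes were tested, and none passed an FDR of 0.05. Only *NLGN3* (named after its human orthologue, a postsynaptic adhesion molecule) had an unadjusted *p*-value under 0.05 (log2 fold change 0.44, edgeR FDR 0.528), which is 5% of the 20 genes beside 18% of the 805 genes tested on Chromosome 14. Of these 20 genes, 12 were fitted higher and 8 lower in the mutant, with a median log2 fold change of 0.04. The difference of *plp1a* was the ninth lowest on Chromosome 14. The study could not exclude that alleles differing in expression, rather than the mutation, contributed to differences on this chromosome. For *plp1a* this was not tested, and the levels of its neighbours cannot show which alleles of *plp1a* the clutches carried.

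The second proteolipid gene, *plp1b* (ENSDARG00000011929, Chromosome 5, 23268121 to 23280098, reverse strand), behaved differently from *plp1a*. It was at 3.13, 3.70, 3.20 and 3.18 CPM in S2, S4, S5 and S8, a 1.18-fold range. In the wild type it was at 0.225, 0.432, 1.31 and 4.91 CPM in A, D, G and L, from 7, 15, 42 and 130 reads. Clutches A, D and G were below every mutant clutch and L was above every mutant clutch. The means were 3.30 ± 0.265 and 1.72 ± 2.18 CPM (SD, n = 4), and the log2 fold change of 0.96 (SE 0.71) had an edgeR FDR of 0.660. It was 0.10 without A and D and 2.33 without L, with an FDR of 0.400 by edgeR, and 1.93 by limma-voom.

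The same order of wild type clutches was seen for *mbpa* (ENSDARG00000036186, Chromosome 19, 21814047 to 21832630, reverse strand), which encodes myelin basic protein, the protein that compacts the sheath. Reads of *mbpa* numbered 402, 570, 322 and 398 in S2, S4, S5 and S8, and 5, 8, 50 and 592 in A, D, G and L. These correspond to 11.5, 17.3, 11.9 and 12.8 CPM in the mutant clutches and 0.161, 0.230, 1.56 and 22.4 CPM in the wild type clutches. The counts of 5 and 8 reads have exact 95% Poisson intervals of 1.62 to 11.7 and 3.45 to 15.8 reads, which cover counting error only, and neither interval reaches the 50 reads of G. Thus transcripts of *mbpa* were near the limit of detection in A and D, low in G, and at their highest in L, with the 4 mutant clutches between G and L. The means were 13.4 ± 2.66 and 6.08 ± 10.9 CPM (SD, n = 4), equal to coefficients of variation of 19.9% and 179%.

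The fitted log2 fold change of *mbpa* was 1.16 (SE 1.08, 95% interval −1.23 to 3.54, edgeR FDR 0.740), and the exact permutation test gave *p* = 0.143 (two-sided). This value rested on single clutches. It was 0.18 without A and D, and 4.36 without L, where the unadjusted *p* was 4.05e-05 and the FDR 0.169 by edgeR. The test of limma-voom, which compares mean log2 levels rather than mean counts, gave 3.71 with an FDR of 0.484.

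Claudin k (*cldnk*, ENSDARG00000042357, Chromosome 3, 50123507 to 50127668, reverse strand) is a tight junction protein of the myelin of both oligodendrocytes and Schwann cells in zebrafish. Its transcripts were at 2.41, 3.34, 2.47 and 5.21 CPM in S2, S4, S5 and S8 and at 1.45, 1.58, 3.03 and 4.08 CPM in A, D, G and L. Clutches A and D were again the lowest, and the other 6 clutches overlapped. The means were 3.36 ± 1.31 and 2.53 ± 1.25 CPM (SD, n = 4), and the log2 fold change was 0.41 (SE 0.38, edgeR FDR 0.734), or −0.07 without A and D.

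Myelin protein zero (*mpz*, ENSDARG00000038609, Chromosome 2, 44259482 to 44283554, reverse strand) is the adhesion protein of Schwann cell myelin in mammals and is also made by oligodendrocytes in fish. It was at 3.48, 4.09, 3.53 and 2.83 CPM in S2, S4, S5 and S8 and at 1.57, 0.259, 1.13 and 5.66 CPM in A, D, G and L. Here D was the lowest clutch, with 9 reads against 36 to 150 in the other wild type clutches, and the mutant clutches again lay between L and the rest. The means were 3.48 ± 0.517 and 2.16 ± 2.40 CPM (SD, n = 4). The log2 fold change was 0.71 (SE 0.65, edgeR FDR 0.731), 0.06 without A and D, 1.83 without L and 1.51 by limma-voom.

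**Figure D2:**
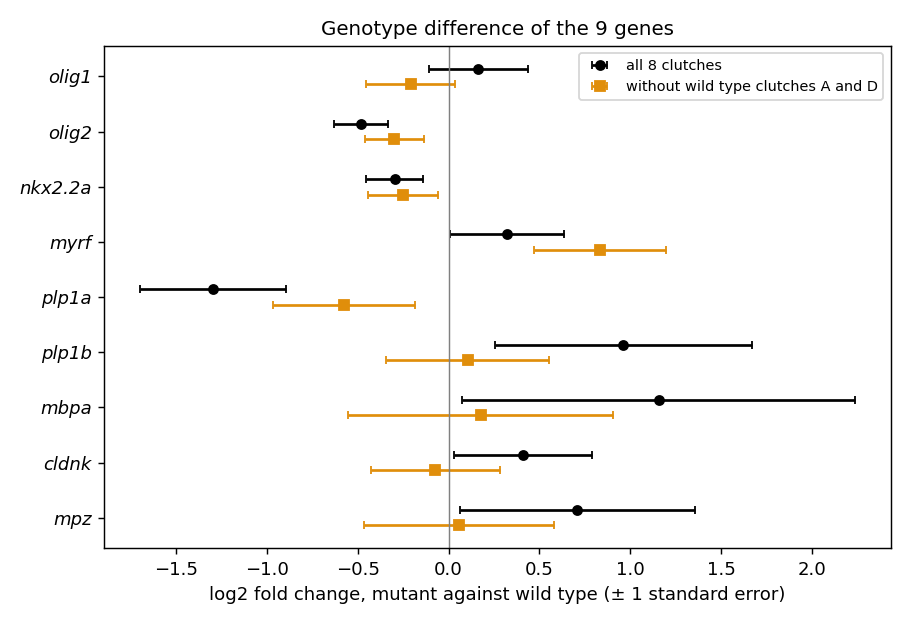
Fitted log2 fold change of each gene, mutant against wild type, with bars of 1 standard error, for all 8 clutches (black circles) and without wild type clutches A and D (orange squares). The values of *plp1b*, *mbpa*, *cldnk* and *mpz* go from between 0.41 and 1.16 to between −0.07 and 0.18, and that of *plp1a* goes from −1.30 to −0.58.

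The spread of *plp1b*, *mbpa* and *mpz* was therefore found in the wild type clutches. The SD of log2 CPM among the 4 wild type clutches was 1.81, 3.05 and 1.70 for these genes, which placed them at the 99.6, 99.9 and 99.6 percentiles of the 18282 genes with a mean above 1 CPM. Among the 4 mutant clutches the SD was 0.110, 0.266 and 0.215, at the 10.7, 53.9 and 40.3 percentiles. The median SD of these 18282 genes was 0.214 in the wild type and 0.251 in the mutant. These values describe the clutches at hand, and a difference in spread between genotypes was not tested. For *plp1a* the SD was high in both genotypes, at the 94.5 percentile in each.

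Clutches A and D were the lowest of the 8 clutches for 4 of the 9 genes (*olig1*, *plp1b*, *mbpa* and *cldnk*) and the highest for 2 (*olig2* and *plp1a*). Over all genes tested, these clutches were the lowest for 12.7% and the highest for 11.6% of genes. In the Schwann cell lineage they were lowest for 4 of 9 genes and highest for 2. Of 18 transcription factors listed with the lineage they were lowest for 2 and highest for 6. Of 15 precursor receptors and signals they were lowest for 0 and highest for 5. Of 21 other myelin genes they were lowest for 3 and highest for 2. Some markers of other cell types had A and D at an end too. A and D were lowest for 5 of 10 neuronal genes and highest for 1, and lowest for 5 of 12 motor neuron genes and highest for 1. Of 14 genes of Hedgehog signalling, the pathway that induces *olig2* and *nkx2.2a* in the ventral neural tube, they were highest for 7 and lowest for 0. Of 7 genes of radial glia they were lowest for 1 and highest for 1. Microglial genes were in neither position in any of 4 genes. The part of these differences in the levels of the 9 genes was not tested.

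How the 9 genes varied with each other was examined over the 8 clutches by correlation of log2 CPM, with exact permutation *p*-values (two-sided) adjusted over the 36 pairs. The share over pairs of all genes was not taken, so the counts of pairs have no background here. A positive Pearson correlation was found for 13 pairs, and 2 pairs passed an adjusted *p* of 0.05 by both Pearson's *r* and Spearman's rho. The first was *plp1b* with *mbpa* (*r* = 0.99, exact *p* = 7.44e-05, adjusted 0.00268, and rho = 0.98, exact *p* = 3.97e-04, adjusted 0.0143). It remained without A and D (*r* = 0.99) and with the genotype means removed (*r* = 0.99). The clutches A, D and G formed the lower arm of this relation and L and the mutant clutches the upper end.

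The other pair was *olig2* with *plp1a* (*r* = 0.94, exact *p* = 0.00131, adjusted 0.0237, and rho = 0.93, exact *p* = 0.00223, adjusted 0.0402). It gave *r* = 0.98 without S4 and D, the clutches farthest from the median of *olig2*, and *r* = 0.88 with the genotype means removed. Mutant clutch S5, which had more *olig2* and *plp1a* than the other mutant clutches, fell beside wild type clutches G and L. The genes of these pairs lie on different chromosomes. Between the pairs the relation was negative, as in *plp1a* with *mbpa* (*r* = −0.81 and rho = −0.74, exact *p* = 0.0206 and 0.0458, adjusted 0.0674 and 0.165, *r* = −0.76 without S8 and A), which did not pass.

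**Figure D3:**
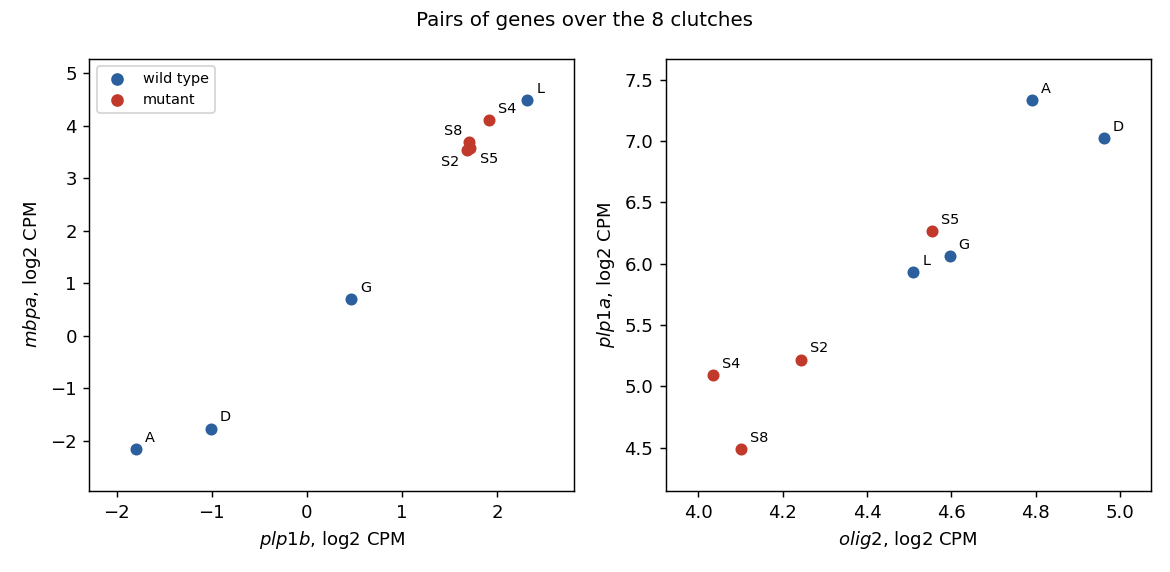
Levels of *mbpa* against *plp1b* (left) and of *plp1a* against *olig2* (right) in log2 CPM for the 4 wild type (blue) and 4 mutant (red) clutches, named beside the points. Clutches A and D are at the low end of the first pair and at the high end of the second, and Pearson's *r* over the 8 clutches is 0.99 and 0.94.

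Because the duplicated genes *plp1a* and *plp1b* both encode proteolipid protein, their levels were compared per kilobase of gene length. The ratio of *plp1a* to *plp1b* was 5.15, 3.99, 10.4 and 3.04 in S2, S4, S5 and S8, and 310, 131, 22.0 and 5.39 in A, D, G and L. Clutches A, D and G were above every mutant clutch, whereas L was within the range of the mutant clutches. In L, *plp1a* was at 12.3 and *plp1b* at 2.28 RPKM (reads scaled to gene length and library depth), and in A they were at 32.4 and 0.105 RPKM.

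In mean RPKM, the order of the 9 genes in the wild type was *plp1a* (21.1), *olig2* (15.7), *nkx2.2a* (4.08), *olig1* (2.43), *mbpa* (2.27), *cldnk* (1.47), *myrf* (1.26), *plp1b* (0.80) and *mpz* (0.561). Neighbours in this order had ranges that did not overlap only for *olig2* over *nkx2.2a* and *nkx2.2a* over *olig1*. In the mutant the order was *olig2* (11.2), *plp1a* (8.6), *mbpa* (4.99), *nkx2.2a* (3.33), *olig1* (2.72), *cldnk* (1.94), *myrf* (1.57), *plp1b* (1.54) and *mpz* (0.907). There the ranges of neighbours were apart only for *mbpa* over *nkx2.2a* and *plp1b* over *mpz*. The wild type mean of *mbpa* rested on L, where it was at 8.34 RPKM against 0.06 to 0.583 RPKM in A, D and G, and in L *mbpa* was above *olig1* and *nkx2.2a*.

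The genes most like each of the 9 genes were found by Pearson's *r* of log2 CPM over the 8 clutches among the genes above 1 CPM, given as a description. For *plp1a* they were *notch3* (*r* = 0.998, a Notch receptor), *HES6* (0.99, a helix-loop-helix factor) and *sox19a* (0.99, a SoxB1 factor of neural progenitors). For *mbpa* they were *plp1b* (0.99), *RNF207* (0.97) and *epd* (0.97, ependymin), and for *plp1b* they were *mbpa*, *adob* (0.98) and *RNF207* (0.98). Levels of *epd* were 2.96, 1.21, 7.12 and 41.9 CPM in A, D, G and L and between 21.9 and 30.6 CPM in the mutant clutches, the same split as for *mbpa*. The genes most like *olig2* were *PSMD11* (0.99, a proteasome subunit), *PIAS4* (0.99) and *CDC27* (0.99), and those most like *nkx2.2a* were *PSMC2* (0.98), *PRPF6* (0.98) and *sdc4* (0.98). They were *RUNDC3A*, *zgc:171242* and *CFAP100* for *olig1*, *DOCK4*, *ADAM15* and *WSB2* for *myrf*, *XKR7*, *ptgdsb.2* and *zgc:136493* for *cldnk*, and *pmchl*, *zgc:114046* and *ftr02* for *mpz*, with *r* from 0.94 to 0.99. Symbols in capitals are those of the human orthologue in the name table. None of these genes was another of the 9, apart from *mbpa* and *plp1b*.

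Further genes were compared from lists named by function, and not every listed gene is specific to the oligodendrocyte lineage. Of 18 transcription factors listed with the lineage, none passed an FDR of 0.05 by edgeR's quasi-likelihood test. Of these, 12 were fitted lower and 6 higher in the mutant, with a median log2 fold change of −0.22 beside 0.02 over all genes. Before adjustment *p* was under 0.05 for 5 in the lower direction and for 1 in the higher direction, beside 5.19% and 4.22% of all genes. The former were *olig3* (−0.84, a relative of *olig2*), *nkx2.2b* (−0.78), *ascl1a* (−0.59), *sox9b* (−0.48) and *nkx6.1* (−0.31). The latter was *myrfl* (0.75), a relative of *myrf* at 1.45 and 0.862 CPM. Neither *olig3* nor *myrfl* was taken as a marker of oligodendrocytes. Levels of *sox10*, which marks oligodendrocytes and Schwann cells at every stage, were 34.9, 30.1, 36.5 and 32.3 CPM in S2, S4, S5 and S8 and 26.8, 28.3, 35.3 and 35.6 CPM in A, D, G and L, with a log2 fold change of 0.09 (SE 0.13). In whole embryos, other cells may also contribute to *sox10*. The most abundant factor of the list, *tcf7l2*, an effector of Wnt signalling, was at 145 ± 16.0 CPM in the mutant and 166 ± 5.04 CPM in the wild type (SD, n = 4, log2 fold change −0.20). Without A and D, none of the 18 had an unadjusted *p*-value under 0.05.

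Among 15 receptors and signals of oligodendrocyte precursors, 8 were fitted higher and 7 lower, with a median of 0.00. Only *notch3* had an unadjusted *p*-value under 0.05, in the lower direction, beside 5.19% of all genes. Its levels were 162, 148, 219 and 121 CPM in S2, S4, S5 and S8 and 320.5, 288, 216 and 197 CPM in A, D, G and L (log2 fold change −0.65, SE 0.21, edgeR FDR 0.528). As for *plp1a*, S5 was above G and L. Without A and D *notch3* was no longer among the genes with such a *p*-value. Instead, 3 of the other 14 were (*gpr17*, *erbb2* and *erbb3a*), all fitted higher in the mutant. Of all genes in that fit, 3.78% were higher and 1.56% lower with such a *p*-value. With all 8 clutches the log2 fold changes of these 3 genes were 0.26, 0.15 and 0.003. S2, S4, A and D had the highest *erbb2* and *erbb3a*, and that fit dropped A and D but kept S2 and S4. Highest for *gpr17* was S8. The median of the list was 0.19 without A and D. Transcripts of *pdgfra*, the receptor that defines precursors in mammals, were at 76.7 ± 4.18 and 73.1 ± 4.75 CPM in mutant and wild type (SD, n = 4, log2 fold change 0.07). Other cells of the embryo may contribute to *pdgfra*, so these values do not measure the number of precursors.

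Of 21 other genes of myelin proteins and myelin lipids, 11 were fitted higher and 10 lower, and none passed an FDR of 0.05 by edgeR. The unadjusted *p* was under 0.05 for 2 in each direction, beside 9.41% of all genes in either. The axonal contactin partner *cntnap1* (0.95) and myelin-associated glycoprotein *mag* (0.81) were fitted higher, and the choline phosphodiesterase *enpp6* (−0.47) and *cnp* (−0.41), a phosphodiesterase of non-compact myelin, were fitted lower. Only *cnp* had genotypes that did not overlap, at 90.5 to 118 CPM in the mutant and 126 to 149 CPM in the wild type, beside 4.28% of all genes. The second myelin basic protein gene, *mbpb*, did not share the spread of *mbpa*, although A and D were its lowest clutches too. Its levels were 56.5, 63.5, 66.9 and 82.7 CPM in S2, S4, S5 and S8 and 51.5, 53.8, 64.8 and 70.8 CPM in A, D, G and L, a log2 fold change of 0.16 (SE 0.15). The most abundant gene of the list was *pmp22b*, a peripheral myelin protein gene, at 164 ± 15.1 and 173 ± 25.8 CPM (SD, n = 4, log2 fold change −0.08). Without A and D, 1 of the 21 genes had an unadjusted *p*-value under 0.05, in the lower direction (*enpp6*, −0.64). Of all genes in that fit, 5.34% had such a *p*-value, made up of 1.56% lower and 3.78% higher. The gene *enpp6* lies on Chromosome 14, the chromosome of *fmr1*, where 18% of 805 genes had such a *p*-value with all 8 clutches. The list's median turned from 0.00 to −0.08 without A and D. Summed over the 21 genes, levels were 651.6 to 731.4 CPM in the mutant clutches and 683.4 to 780.2 CPM in the wild type clutches.

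**Figure D4:**
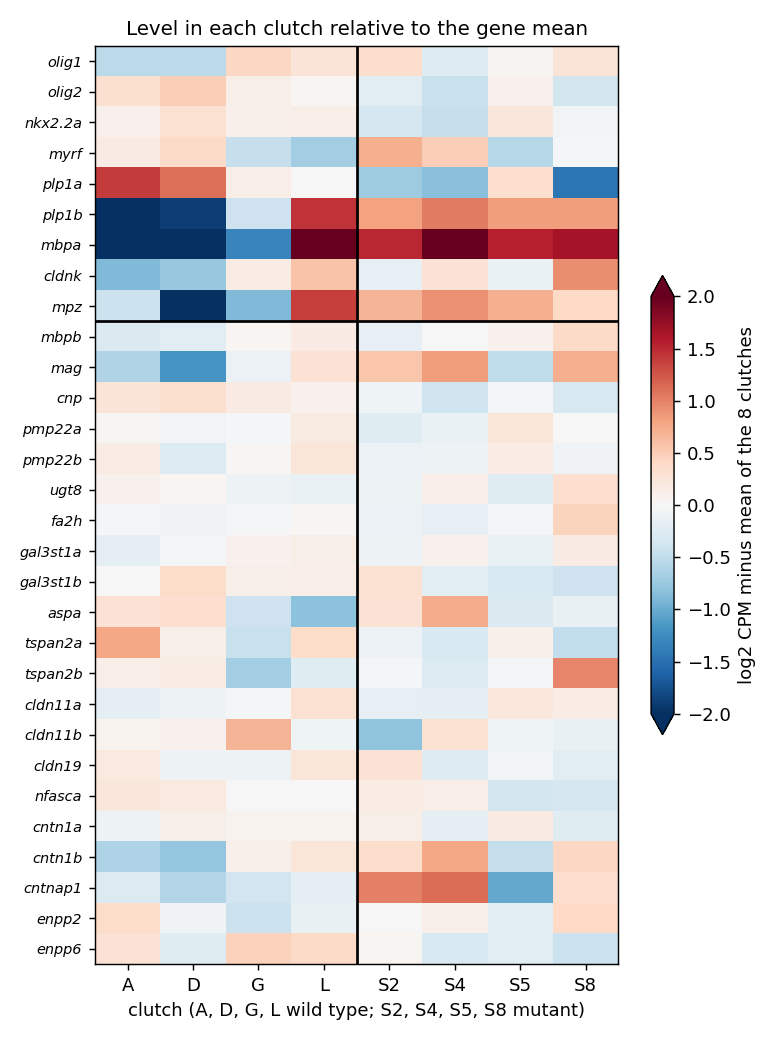
Level of each gene in each clutch as log2 CPM minus the mean over the 8 clutches (colour, limits −2 and 2), for the 9 genes (above the line) and 21 other genes of myelin proteins and lipids (below). A and D are bluest in *mbpa* and *plp1b*, D also in *mpz*, and L is reddest in *plp1b* and *mpz*. For *mbpa*, both L and S4 lie above the upper colour limit. In contrast, *mbpb* ranges from 51.5 to 82.7 CPM.

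For the Schwann cell lineage, the glia that myelinate peripheral nerves, 9 genes beside *mpz* were tested and none passed an FDR of 0.05 by edgeR. The unadjusted *p* was under 0.05 for 1 gene in each direction, where 4.22% of all genes were higher and 5.19% lower with such a *p*. The adhesion receptor *adgrg6*, needed for Schwann cells to begin myelination, had an unadjusted *p* under 0.05 in the higher direction (14.3 ± 3.09 against 10.1 ± 1.40 CPM, SD, n = 4, log2 fold change 0.51). The POU factor *pou3f1*, which is also expressed in the brain, had one in the lower direction (85.6 ± 19.7 against 139 ± 33.2 CPM, SD, n = 4, log2 fold change −0.70). As for *olig2* and *plp1a*, *pou3f1* was highest in A (172 CPM) and D (163 CPM), and S5 (113 CPM) was above L (108 CPM). Without A and D, none of these 9 genes had an unadjusted *p*-value under 0.05, and their median turned from 0.07 to −0.04. The 4 other members of the proteolipid family had no unadjusted *p*-value under 0.05, and the most abundant of them, the neuronal membrane gene *gpm6aa*, was at 571 ± 32.6 and 653 ± 65.4 CPM (SD, n = 4, log2 fold change −0.19).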

How the data were processed

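Transcripts were sequenced from 1 pooled clutch per library (8 libraries). The authors called bases with CASAVA, trimmed the reads, aligned them to GRCz11 with STAR (2.5.3a) and counted reads per gene with featureCounts (1.5.2), with a mapping quality of at least 10, strand setting 2 (reverse) and reads wholly within exons. No option for read pairs was recorded. The deposited values are whole-number counts per gene, without normalisation. Reads shared by near-identical genes are lost from such counts, and strands are kept apart.

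Genes counted more than 1 time in 4 or more libraries were compared in R (4.3.3) with edgeR (4.0.16), using TMM, the quasi-likelihood test with genotype as the only term, and Benjamini-Hochberg adjustment over all 23567 genes. The study's own normalisation offsets and likelihood-ratio test were not the main test. Log2 CPM used a prior count of 2. The smallest *p* of the exact permutation test is 0.0286. Nothing in the labels says that clutches were processed in batches. Of the 9 genes, 4 were matched by exact symbol, 2 through a name in the supplementary material, and 3 through the orthologue name and chromosome in RefSeq (GRCz12tu, no coordinates used). Of 122 genes in 10 lists, 114 were matched and tested. The 9 genes and the lists were chosen with earlier results of these data known. Genes named are the 9, list genes with FDR or unadjusted *p* under 0.05, the most abundant gene of each list, the 3 genes most like each of the 9, genes within 1 Mb of *plp1a* with unadjusted *p* under 0.05, and *fmr1*. *mbpb*, *sox10*, *pdgfra*, *shha*, *mnx1*, *gfap*, *p2ry12*, *mitfa* and the genes called only without A and D were named in addition, after values were seen. On simulated data of 23339 genes, the test recovered 49 of 100 genes changed by 1 and 86 of 100 changed by 2 on the log2 scale, with 7 false calls. In the simulation each gene varied independently, without differences shared within a clutch, and genes with few reads were left unchanged. Recovery in the deposited data may therefore be lower. The median SE of the log2 fold change was 0.22. No library was a copy of another, since the chi-square statistic per gene was never below 16.5 (the value of G with L).

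Alternatives were the likelihood-ratio test, DESeq2 (1.42.0), limma-voom (limma 3.58.1), RLE and upper quartile scaling, other filters, the replicate number as a block, and leaving out each clutch. Leaving out A and D together was added after the data were seen.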

Additional observations from a re-analysis of the deposited data

Results flagged for a closer look

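Of the 9 genes in 2 genotypes (18 groups of 4 clutches), 1 group held a clutch far from the others by Dixon's ratio. It was *plp1b* in the mutant, where clutch S4 had 3.70 CPM and the other clutches had 3.13 to 3.20 CPM. In log2 CPM the gap was 0.863 of the whole range of the group, above the 95% critical value for 4 samples. About 1 in 20 such groups is expected to pass by chance. The range of this group was 1.18-fold.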

How the results depend on the processing

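None of the 9 genes passed an FDR of 0.05 under any of 20 alternatives, which included the likelihood-ratio test, DESeq2 and limma-voom. DESeq2 gave no *p*-value for *mbpa*, which was counted as not passing there. Of the fold changes of the 9 genes, 178 of the values under these alternatives kept their direction and side of the threshold. The 2 that reversed were *olig1* (−0.21) and *cldnk* (−0.072), both without A and D, where G and L are the only wild type clutches. The count of all genes past the FDR (3) was 31 by the likelihood-ratio test, 36 by DESeq2 and 0 without A and D, and 1 to 3 with each clutch left out (3 without S2, 2 without A, 1 in all other cases). The 2 of 9 genes with an unadjusted *p* under 0.05 became 5 with limma-voom, 1 without A and D, and 2 to 5 with 1 clutch left out (5 without L). The 17 such list genes became 8 without A and D and 23 with the label numbers 1 and 2 against 3 and 4 as a factor. With 1 clutch left out they were 8 (without S2) to 31 (without S5), and 11, 9, 10 and 10 without S4, S8, A and D. Of all genes, 9.41% had such a *p*-value in the main fit and 5.34% without A and D. The share was not taken in the other fits, so the counts cannot be set beside it there. With the replicate number as a block, 0 genes passed the FDR and 4 of the 9 genes had an unadjusted *p* under 0.05, with log2 fold changes of 3.22 for *mbpa* and 1.72 for *plp1b*. The numbers are not a pairing by the labels, and the deviations of same-numbered clutches correlated at 0.33, −0.20, 0.02 and 0.25. The cause of these changes was not tested. Depth limits *mbpa* and *plp1b* in A and D, which rest on 5 to 15 reads.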

Other observations

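Cell types that surround the oligodendrocyte lineage were measured from lists of their markers, and none of their genes passed an FDR of 0.05 by edgeR. Before adjustment 9.41% of all genes had *p* under 0.05, and 5.34% without A and D. Of 14 genes of Hedgehog signalling, 11 were fitted lower and 3 higher in the mutant, with a median log2 fold change of −0.13 and no unadjusted *p*-value under 0.05. Clutches A and D were the highest for 7 of these genes, and without them 8 were fitted higher and 6 lower, the median turned to 0.05, and *p* was under 0.05 before adjustment for 1 in each direction (*ihhb*, 1.03, and *shhb*, −0.39). The ligand *shha* was at 34.5 ± 3.63 and 35.4 ± 1.89 CPM (SD, n = 4, mutant and wild type), and *boc*, a co-receptor and the most abundant gene of the list, at 104 ± 11.2 and 115 ± 8.30 CPM. Motor neurons share the progenitors marked by *olig2*. Of 12 of their genes, *chata*, the enzyme of acetylcholine synthesis, had an unadjusted *p* under 0.05 (18.2, 18.7, 11.5 and 21.0 CPM in S2, S4, S5 and S8 and 7.71, 10.2, 15.9 and 10.9 CPM in A, D, G and L, log2 fold change 0.64), which was lost without A and D (0.39). Transcripts of *mnx1* were at 6.85 ± 1.73 and 6.89 ± 1.12 CPM (SD, n = 4) and those of *isl1a*, the most abundant, at 75.7 ± 3.57 and 73.3 ± 12.3 CPM.

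Among 10 neuronal genes *tubb5*, a tubulin, was fitted lower (−0.33) with genotypes that did not overlap. It was at 601 to 761 CPM in the mutant and 796 to 952 CPM in the wild type. Of the 114 genes in the 10 lists, 1 did not overlap in the higher direction and 6 in the lower, beside 1.78% and 2.5% of all genes. The unadjusted *p* of *tubb5* was under 0.05 with all clutches but not without A and D (−0.36). Then *stmn2b* (−0.49) was the only neuronal gene with such a *p*. Of 7 genes of radial glia, *her4.1* (−0.82), a Notch target in a family of near-identical copies whose reads may be split or lost, and *sox2* (−0.25) had unadjusted *p*-values under 0.05 in the lower direction. Neither had one without A and D (−0.61 and −0.25). The defining marker *gfap* was at 188 ± 21.8 and 190 ± 18.0 CPM (SD, n = 4), and *fabp7a*, the most abundant of these genes, at 479 ± 39.9 and 501 ± 41.0 CPM. Microglial *p2ry12* was at 0.221 to 0.469 CPM in the 8 clutches. None of 4 microglial genes had an unadjusted *p* under 0.05. Without A and D, *csf1ra*, which lies on Chromosome 14 like *fmr1*, had one (0.60). In whole embryos its reads may also come from cells other than microglia. The most abundant microglial gene, *apoeb*, which other tissues also express, had a log2 fold change of −0.26.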
